A study of Mus musculus with 20 samples.

Results

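The 9 genes described here, Gbp2, Gbp3, Gbp5, Gbp6, Gbp7, Gbp9, Irgm1, Igtp and Iigp1, encode GTPases that interferons switch on. They were taken by name as 9 of the 39056 genes in a table of RNA-seq counts, and 9 of 9 were among the 16107 genes with enough counts to be tested. The counts came from the left hippocampus of 20 female C57BL/6 mice, aged 12 to 13 months and perfused with saline, with 5 mice in each of 4 groups. The WT Non-Tg group (Non-Tg miR34a+/+) carried neither the transgene nor the deletion, and the KO Non-Tg group (Non-Tg miR34a-/-) lacked miR-34a constitutively in the whole body. The WT Tg-SwDI group (miR34a+/+) carried human amyloid precursor protein with the Swedish, Dutch and Iowa mutations under the neuronal Thy1 promoter, a transgene that leads to amyloid deposits in brain and vessels, and the KO Tg-SwDI group (miR34a-/-) carried the transgene and lacked miR-34a. All 4 groups had been through behavioural tests, and no males, other ages or separate cell types were sequenced, so each value is an average over all cells of the tissue. Replicate numbers are those of the sample titles.

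Interferon-inducible GTPases belong to the cell's own defence against microbes inside it. Interferons bind receptors that activate transcription factors, which enter the nucleus and bind short DNA elements in front of these genes. The guanylate-binding proteins (the Gbp genes) are large GTPases that gather on membranes of bacteria and of the compartments around parasites, and help to open them and to start inflammasome assembly. The immunity-related GTPases come as effectors such as Iigp1, which load onto the compartment around a parasite, and as regulators such as Irgm1 and Igtp, which stay on the cell's own membranes and hold the effectors inactive there. In brain, microglia, astrocytes and endothelial cells can all express them after interferon.

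The members lie in a few clusters of related genes (GENCODE M21, mm10). On chromosome 3 stand Gbp5 (ENSMUSG00000105504, 142493978 to 142522344), Gbp7 (ENSMUSG00000040253, 142530342 to 142550149), Gbp3 (ENSMUSG00000028268, 142560026 to 142573209) and Gbp2 (ENSMUSG00000028270, 142620602 to 142638008), all on the plus strand. On chromosome 5 stand Gbp9 (ENSMUSG00000029298, 105077630 to 105139539) and Gbp6 (ENSMUSG00000104713, 105270702 to 105293698), both on the minus strand. Irgm1 (ENSMUSG00000046879, 48861968 to 48871683, minus strand) and Igtp (ENSMUSG00000078853, 58199556 to 58207591, plus strand) are on chromosome 11, and Iigp1 (ENSMUSG00000054072, 60376027 to 60392634, plus strand) is on chromosome 18. Mir34a itself lies on chromosome 4, so no member shares its chromosome.

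The DNA in front of the genes was searched for the elements through which interferons act, because these are the sequences that the members could share. RefSeq promoter windows of 300 bases around the start site (GRCm38.p6) were found for 6 of the 9 members, and Gbp6, Gbp9 and Iigp1 had no window. The interferon-stimulated response element (ISRE), which answers mainly to type I interferon, was spelled GAAANNGAAA, and the gamma-activated site (GAS), which answers to interferon gamma, was spelled TTCNNNGAA. Both strands were read. The ISRE letters were found for 6 of the 6 members with a window, against 3.44% of all 32851 promoter windows. The GAS letters were found for 3 of 6 (Gbp5, Gbp7 and Igtp) against 8.30% of all windows, and both together for those 3 against 0.454% of all windows. A match describes letters and does not show that a factor binds there.

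Windows of 4 members are given as examples: a pair of overlapping ISRE matches in a Gbp and in an immunity-related GTPase gene, and ISRE together with GAS in one of each kind. Letters are on the strand of the gene, 5′ to 3′, and capitals mark the ISRE and GAS matches. The windows are chr3:142559794-142560093 (plus strand) for Gbp3, chr3:142530086-142530385 (plus strand) for Gbp7, chr11:48871371-48871670 (minus strand) for Irgm1 and chr11:58199306-58199605 (plus strand) for Igtp.
Gbp3: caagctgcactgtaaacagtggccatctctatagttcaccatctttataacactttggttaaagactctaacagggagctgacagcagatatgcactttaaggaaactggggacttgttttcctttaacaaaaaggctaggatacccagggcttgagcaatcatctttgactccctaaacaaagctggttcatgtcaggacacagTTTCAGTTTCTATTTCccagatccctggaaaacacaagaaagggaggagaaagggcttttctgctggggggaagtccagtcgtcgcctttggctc
Gbp7: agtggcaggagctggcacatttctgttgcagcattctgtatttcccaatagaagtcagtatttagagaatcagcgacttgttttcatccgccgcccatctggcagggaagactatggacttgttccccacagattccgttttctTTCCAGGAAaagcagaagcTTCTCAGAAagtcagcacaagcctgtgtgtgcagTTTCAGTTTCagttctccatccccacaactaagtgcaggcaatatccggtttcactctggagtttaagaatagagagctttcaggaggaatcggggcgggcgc
Irgm1: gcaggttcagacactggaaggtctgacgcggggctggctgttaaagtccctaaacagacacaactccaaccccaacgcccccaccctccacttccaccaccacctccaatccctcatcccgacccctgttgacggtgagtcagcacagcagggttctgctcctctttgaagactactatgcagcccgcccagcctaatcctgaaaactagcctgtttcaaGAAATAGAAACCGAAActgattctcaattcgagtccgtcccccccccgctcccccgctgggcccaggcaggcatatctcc
Igtp: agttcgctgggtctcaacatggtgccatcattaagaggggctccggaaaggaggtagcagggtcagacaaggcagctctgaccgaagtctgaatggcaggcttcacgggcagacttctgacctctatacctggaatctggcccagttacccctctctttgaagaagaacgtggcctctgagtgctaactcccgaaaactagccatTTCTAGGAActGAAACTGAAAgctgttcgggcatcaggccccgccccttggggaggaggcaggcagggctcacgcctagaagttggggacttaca

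In 5 of the 6 members the ISRE letters lay close to the start site. They ran from base -59 to base -50 in Gbp2, from -53 to -44 in Gbp7 and from -34 to -25 in Igtp, and a pair of overlapping matches spanned -45 to -30 in Gbp3 and -30 to -15 in Irgm1. Gbp5 had its ISRE match farther away, from -165 to -156, with GAS matches from -245 to -237 and from -52 to -44. Gbp3 had another RefSeq start with a window of its own, which held neither motif.

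**Figure D1:**
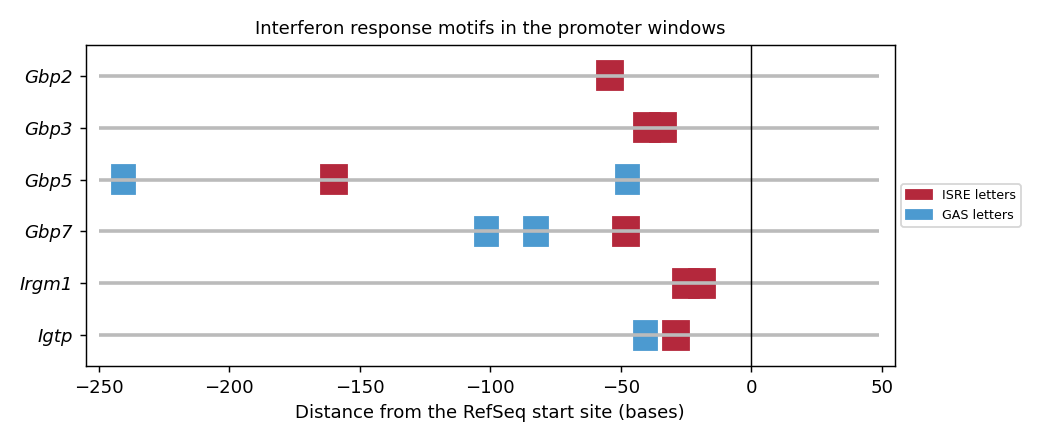
Position of the ISRE letters (red) and the GAS letters (blue) in the RefSeq promoter windows of 6 members, as distance in bases from the start site (vertical line, base 0). Red boxes stand between -59 and -15 in Gbp2, Gbp3, Gbp7, Irgm1 and Igtp and at -165 in Gbp5, and blue boxes stand in Gbp5, Gbp7 and Igtp alone among the 6.

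The microRNA that the KO mice lack pairs with messenger RNAs through its seed, bases 2 to 8 of the mature strand, given here in capitals from RefSeq.
mmu-miR-34a-5p: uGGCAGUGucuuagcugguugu
The longest 3' untranslated region of each member in GENCODE M21 was searched for the matching 7 or 8 letters. A match was present in 5 of 9 members, against 3465 of 14699 tested genes with such a region (23.6%). Igtp had an 8mer (chr11:58206925-58206932), Gbp7 (chr3:142546975-142546981) and Gbp9 (chr5:105078192-105078198) had a 7mer to bases 2 to 8, and Gbp5 (chr3:142521279-142521285) and Iigp1 had a 7mer ending in A opposite base 1. Gbp2, Gbp3, Gbp6 and Irgm1 had none. The sites of Igtp, Gbp7, Gbp9 and Gbp5 are shown with the bases around them, with the seed match in capitals, so that it can be seen that the matches differ in length.
Igtp: tccgaggatgaCACTGCCAacctggagagg
Gbp7: acccatgcctaCACTGCCtgggtgatcca
Gbp9: tctcatgagctCACTGCCtctccacactg
Gbp5: ccccctgtcgaACTGCCAtatttgtctca
Such letters are a description, and whether miR-34a pairs with them in hippocampus was not tested.

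Each mouse gave 19549622 to 21066868 counts in genes, of which the 9 members took 632 to 2603. Levels are given as CPM, the share of a gene in the library total after TMM scaling. The level of Thy1, source of the transgene's promoter, was 685 to 769 CPM without the transgene (10 mice) and 1905 to 3318 CPM with it (10 mice), so the transgene labels were borne out, whereas the miR-34a gene was not analysed here and the KO labels could not be checked in this way. Markers of neurons, astrocytes, microglia and endothelium were above 0 in every group. A few libraries stood apart. In KO Tg-SwDI replicate 8, mitochondrial genes took 14.6% of counts against 6.94% to 8.76% in the other 19 mice. Choroid plexus genes, which mark the tissue of the ventricle next to the hippocampus, summed to 3081 to 6951 CPM in 11 of 20 mice and to 272 to 734 CPM in the other 9, which included all 5 KO Non-Tg mice. The comparisons in which these libraries weigh are also given without replicate 8 or with the choroid plexus genes as a covariate.

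The levels of the members, in TMM-normalised CPM per kilobase of exon so that genes can be compared, differed more than 10 times from the lowest to the highest. In KO Tg-SwDI mice Gbp2 stood at 5.20 ± 1.76, Igtp at 4.59 ± 1.92, Irgm1 at 3.47 ± 1.04 and Gbp3 at 3.13 ± 1.36 CPM per kilobase (SD, n = 5 each). Gbp7, Iigp1, Gbp9 and Gbp5 were lower, from 1.29 to 2.002, and Gbp6 was the lowest at 0.452 ± 0.247. The spread within the group is wider than most of the steps between neighbours in this order. In WT Non-Tg mice the same 4 genes led, Gbp2 at 2.12 ± 0.817 and Igtp at 2.06 ± 0.796, then Irgm1 at 1.77 ± 0.264 and Gbp3 at 1.41 ± 0.391 CPM per kilobase (SD, n = 5 each), and Gbp6 was again the lowest at 0.161 ± 0.0540. Gbp6 is uncertain, and Gbp7 and Igtp are so to a lesser degree. Of the 100-base stretches of their transcripts, 64.5% (Gbp6), 10% (Gbp7) and 5.16% (Igtp) also occur in another gene. These were mainly Gm43302 and Gbp10 for Gbp6, Gm43802 for Gbp7 and Irgm2 for Igtp. The treatment of reads that match more than 1 gene is not given in the sources used here. The share was at most 1.65% for the other 6 members.

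Across the 4 groups the order was much the same for all members. KO Tg-SwDI had the highest group mean for 9 of 9 members, and WT Tg-SwDI came next for 8 of 9, the exception being Gbp9. The mean of KO Tg-SwDI was above that of the next group by 1.36-fold for Gbp9 at the least and 2.61-fold for Iigp1 at the most. The 2 Non-Tg groups took the lower places in an order that varied between genes, and their values overlapped for every member. The values of single mice follow in the order of their replicate numbers, which are 1, 2, 3, 5 and 8 for KO Tg-SwDI, 3 to 7 for WT Tg-SwDI, 1, 2, 4, 7 and 8 for KO Non-Tg and 2, 3, 4, 6 and 7 for WT Non-Tg. In tissue RNA, fewer cells of a type and less RNA per cell cannot be told apart.

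**Figure D2:**
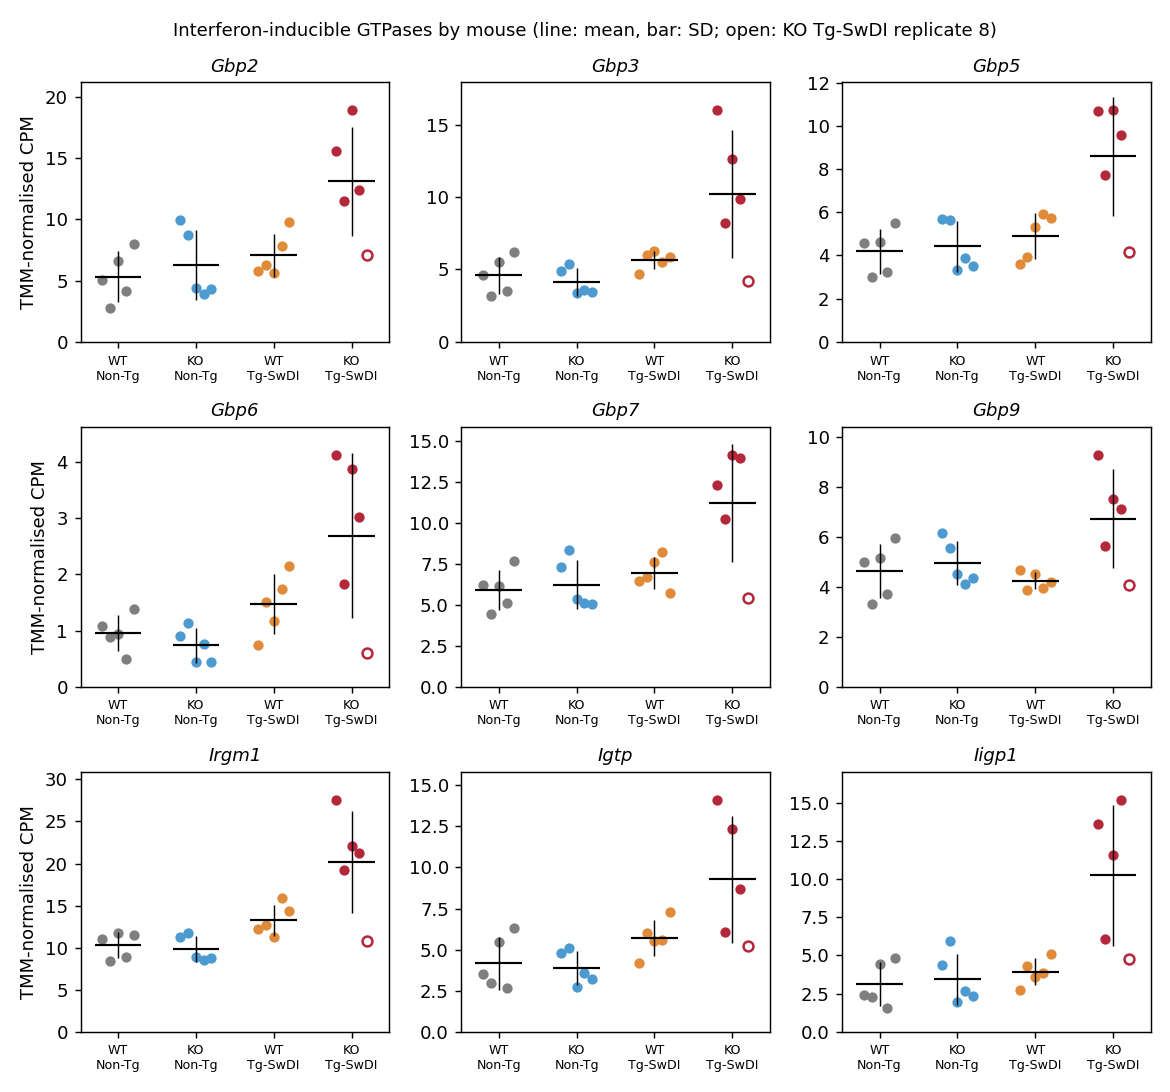
TMM-normalised CPM (vertical axes, starting at 0) of the 9 GTPases in each of 20 mice, by group, with a line at the mean and a bar for the SD (n = 5). In 7 of 9 panels (all but Gbp6 and Igtp) 4 of the 5 KO Tg-SwDI mice stand above all WT Tg-SwDI mice, and in each panel replicate 8 (open circle) is the lowest of its group.

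Gbp2 carries a motif for a lipid anchor and is also used as a marker of reactive astrocytes. It was at 15.5, 11.5, 18.9, 12.4 and 7.10 CPM in KO Tg-SwDI and at 5.82, 6.29, 5.65, 7.78 and 9.81 CPM in WT Tg-SwDI mice. It was at 9.95, 8.68, 4.39, 3.93 and 4.35 CPM in KO Non-Tg and at 5.06, 2.78, 6.62, 4.15 and 8.02 CPM in WT Non-Tg mice. 4 of 5 KO Tg-SwDI mice lay above all WT Tg-SwDI mice, and KO Non-Tg replicate 1 was slightly above the highest WT Tg-SwDI mouse. Gbp3, its neighbour in the cluster, was at 16.001, 8.24, 12.7, 9.90 and 4.24 CPM in KO Tg-SwDI and at 4.69, 6.01, 6.28, 5.51 and 5.84 CPM in WT Tg-SwDI mice. The Non-Tg mice were at 4.93, 5.36, 3.38, 3.55 and 3.43 CPM with miR-34a deleted and at 4.59, 3.17, 5.49, 3.55 and 6.21 CPM without the deletion. Again 4 KO Tg-SwDI mice were above all other mice of the study and replicate 8 was below all 5 WT Tg-SwDI mice.

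Gbp5, known for its part in assembly of the NLRP3 inflammasome, was at 10.7, 7.72, 10.7, 9.59 and 4.18 CPM in KO Tg-SwDI and at 3.61, 3.93, 5.30, 5.94 and 5.74 CPM in WT Tg-SwDI mice. It was at 5.69, 5.64, 3.33, 3.89 and 3.53 CPM in KO Non-Tg and at 4.59, 3.03, 4.602, 3.25 and 5.49 CPM in WT Non-Tg mice. The 2 Non-Tg groups and WT Tg-SwDI covered much the same range, with 4 KO Tg-SwDI mice above it. Gbp7, which has been tied to oxidative killing in phagocytes, was at 12.4, 10.2, 14.2, 13.998 and 5.45 CPM in KO Tg-SwDI and at 6.48, 6.72, 7.61, 8.21 and 5.74 CPM in WT Tg-SwDI mice. It was at 7.32, 8.35, 5.36, 5.13 and 5.08 CPM in KO Non-Tg and at 6.24, 4.46, 6.15, 5.10 and 7.68 CPM in WT Non-Tg mice. The lowest of the 4 high KO Tg-SwDI mice stood above the highest value of any other group.

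On chromosome 5, Gbp9 was at 9.28, 5.63, 7.54, 7.13 and 4.07 CPM in KO Tg-SwDI and at 4.69, 3.88, 4.52, 3.96 and 4.21 CPM in WT Tg-SwDI mice. It was at 6.17, 5.55, 4.54, 4.13 and 4.35 CPM in KO Non-Tg and at 5.01, 3.32, 5.17, 3.70 and 5.97 CPM in WT Non-Tg mice. Gbp9 was the member with the flattest profile, and its WT Tg-SwDI mice stayed within the range of the WT Non-Tg mice. Gbp6 had the fewest counts of the members, 9 to 87 per mouse. It was at 4.12, 1.83, 3.87, 3.03 and 0.606 CPM in KO Tg-SwDI and at 0.751, 1.51, 1.18, 1.74 and 2.15 CPM in WT Tg-SwDI mice. It was at 0.909, 1.14, 0.434, 0.768 and 0.435 CPM in KO Non-Tg and at 1.09, 0.893, 0.939, 0.4998 and 1.38 CPM in WT Non-Tg mice. 3 of 5 KO Tg-SwDI mice were above all WT Tg-SwDI mice, and replicate 8 was below all 5 of them. Gm43302, which shares 29.0% of the exonic length of Gbp6 on the same strand, had 0 counts in all 20 mice.

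Of the regulators, Irgm1 had the most counts. It was at 27.6, 19.3, 22.04, 21.2 and 10.8 CPM in KO Tg-SwDI and at 12.2, 12.7, 11.3, 15.8 and 14.4 CPM in WT Tg-SwDI mice. It was at 11.2, 11.8, 8.83, 8.54 and 8.80 CPM in KO Non-Tg and at 11.02, 8.43, 11.7, 8.85 and 11.5 CPM in WT Non-Tg mice. Irgm1 was the member with the clearest step from WT Non-Tg to WT Tg-SwDI, with 4 of 5 Tg-SwDI mice above all 5 Non-Tg mice. Igtp, also named Irgm3, was at 14.1, 6.05, 12.4, 8.67 and 5.23 CPM in KO Tg-SwDI and at 4.18, 6.01, 5.55, 5.56 and 7.27 CPM in WT Tg-SwDI mice. It was at 4.78, 5.12, 2.70, 3.55 and 3.19 CPM in KO Non-Tg and at 3.50, 2.98, 5.45, 2.65 and 6.30 CPM in WT Non-Tg mice. Igtp was the 1 member for which every KO Tg-SwDI mouse lay above every KO Non-Tg mouse.

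The effector Iigp1 was at 13.6, 6.10, 11.6, 15.2 and 4.74 CPM in KO Tg-SwDI and at 2.72, 4.30, 3.58, 3.87 and 5.12 CPM in WT Tg-SwDI mice. It was at 4.40, 5.93, 1.93, 2.64 and 2.37 CPM in KO Non-Tg and at 2.41, 2.28, 4.46, 1.55 and 4.82 CPM in WT Non-Tg mice. Here too 4 of 5 KO Tg-SwDI mice lay above all WT Tg-SwDI mice, and replicate 8 lay above 4 of the 5. Its group mean in KO Tg-SwDI was 2.61 times that of the next group.

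To ask whether loss of miR-34a changes the GTPases in the presence of amyloid, KO and WT Tg-SwDI mice were compared. All 9 members had higher levels without miR-34a, by log2 fold changes of 0.61 to 1.39 (median 0.81, against 0.00263 over the 16107 genes tested), and 9 of 9 had an unadjusted p under 0.05. The share of all genes under that unadjusted p is not given here or below, so such counts stand without a background. The members were also high or low in much the same mice, so the 9 are not separate results. None was called at a false discovery rate (FDR) under 0.05 by the quasi-likelihood test of edgeR, with p-values adjusted over all genes after Benjamini and Hochberg, which called 1.48% of genes as higher in KO. Gbp9 came nearest at 0.67 (standard error 0.18, adjusted p = 0.0502). Iigp1 had the largest fold change, 1.39 (standard error 0.37, adjusted p = 0.0579). Gbp5 at 0.81 (standard error 0.23, adjusted p = 0.0688), Irgm1 at 0.61 (standard error 0.17, adjusted p = 0.0732), Gbp7 at 0.70 (standard error 0.21, adjusted p = 0.0817) and Gbp3 at 0.86 (standard error 0.26, adjusted p = 0.0849) followed. Gbp2 at 0.89 (standard error 0.31, adjusted p = 0.138), Igtp at 0.71 (standard error 0.28, adjusted p = 0.179) and Gbp6 at 0.89 (standard error 0.37, adjusted p = 0.197) were farther from the threshold. The groups overlapped for 9 of 9 members, whereas 2.04% of all genes tested were higher in KO without overlap. The calls depended on the tool. DESeq2 called 6 members (all but Gbp2, Gbp6 and Igtp, with adjusted p-values of 0.014 to 0.0198 for those called), where it called 3.07% of genes as higher, and edgeR's exactTest called the same 6, where it called 2.14%. With the choroid plexus genes as a covariate 3 members were called (Gbp7, Gbp9 and Iigp1), where 2.42% of genes were called as higher.

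For 7 of 9 members the overlap rested on 1 mouse. KO Tg-SwDI replicate 8 was the lowest of its group for 9 of 9 members, at a summed level of 46.5 CPM against 76.5 to 123 CPM in the other 4 KO Tg-SwDI mice and 45.1 to 60.3 CPM in WT Tg-SwDI mice. Each mouse was left out in turn, but this mouse was singled out after its values were seen. Leaving out the lowest mouse of the higher group raises the fold changes and lessens the overlap by itself. The counts without it are therefore a description and no test of the members. Without replicate 8, 7 of 9 members were called higher in the KO group by edgeR's quasi-likelihood test, where 1.63% of genes were. The values of 7 of 9 members no longer overlapped, where 3.56% of genes did not. The log2 fold change was then 0.76 for Irgm1 (standard error 0.12, adjusted p = 0.0019), 0.87 for Gbp7 (standard error 0.16, adjusted p = 0.00508), 1.05 for Gbp3 (standard error 0.20, adjusted p = 0.00792), 0.80 for Gbp9 (standard error 0.16, adjusted p = 0.00792) and 0.98 for Gbp5 (standard error 0.19, adjusted p = 0.00816). Iigp1 at 1.57 (standard error 0.35, adjusted p = 0.0291) and Gbp6 at 1.13 (standard error 0.28, adjusted p = 0.0348) were also called, whereas Gbp2 at 1.05 (standard error 0.31, adjusted p = 0.095) and Igtp at 0.85 (standard error 0.27, adjusted p = 0.114) were not. The library of replicate 8 was unlike the others of its group in more than the GTPases. Besides its mitochondrial share, it had the highest summed level of neuronal markers of all 20 mice (15995 CPM against 10581 to 13099 CPM) and the highest Thy1 (3318 CPM). Thy1, whose level went with the transgene labels, is 1 of the 10 genes in that sum, so these values are not separate traits. The microglial markers of replicate 8, at 1127 CPM, were the lowest of its group but above all 5 WT Tg-SwDI mice. The part of these in its low GTPase values was not tested. With the mitochondrial genes left out of the library sizes, an alternative chosen after seeing the data, 0 members were called, as with them. TMM scaling was used in both fits and already adjusts each library, and 319 genes were called in either direction against 320. The setting therefore cannot show what part the mitochondrial share had.

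**Figure D3:**
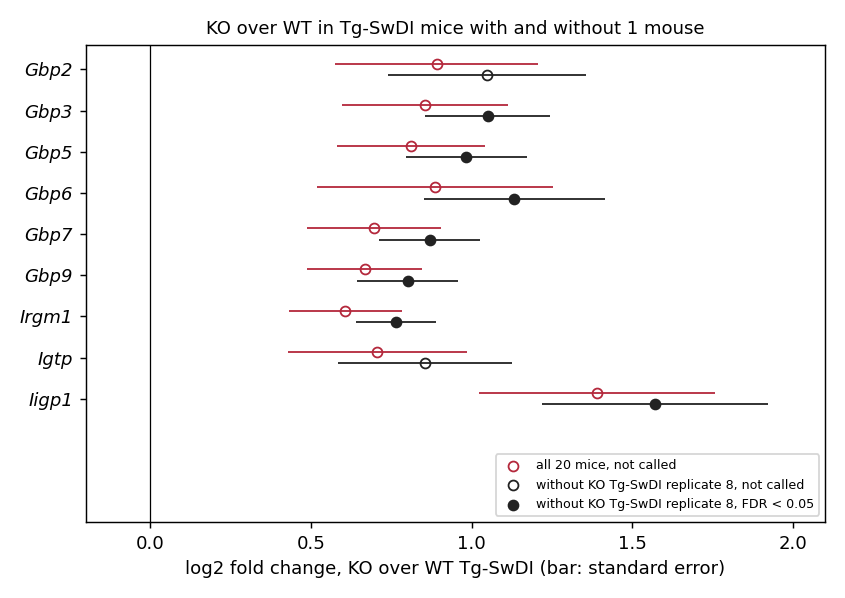
Log2 fold change of KO over WT in Tg-SwDI mice for the 9 members, with bars for the standard error, from edgeR's quasi-likelihood fit of all 20 mice (red) and without KO Tg-SwDI replicate 8 (black). That mouse, the lowest of its group for each member, was singled out after its values were seen. Filled points passed an FDR under 0.05: 0 of 9 red points and 7 of 9 black points, all but Gbp2 and Igtp.

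In mice without the transgene, KO and WT were compared in the same way. By the same edgeR test 0 of 9 members were called, where 0% of genes were called as higher, 0 of 9 had an unadjusted p under 0.05, and DESeq2 and the exactTest also called 0. 5 of 9 members had a log2 fold change above 0, and the values ran from -0.38 for Gbp6 (standard error 0.45) to 0.23 for Gbp2 (standard error 0.33), with adjusted p-values of 0.908 to 0.978. Their median was 0.07. Choroid plexus genes had a median log2 fold change of -2.99 between these 2 groups, but 0 of 15 were called (lowest adjusted p = 0.508 by the same edgeR test). Their summed levels overlapped, at 272 to 734 CPM in KO Non-Tg and 310 to 6951 CPM in WT Non-Tg mice. With the choroid plexus genes as a covariate 0 of 9 members were called and 7 of 9 were above 0. The values then ran from -0.28 for Gbp6 to 0.47 for Iigp1. The part of choroid plexus in this comparison was not tested. Without the covariate the standard errors were 0.18 to 0.45. A standard error is not a limit of detection, and differences well above it could also go uncalled with 5 mice against 5. Among Tg-SwDI mice Gbp9 was not called at 0.67 with a standard error of 0.18.

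The Tg-SwDI mice were next compared with their Non-Tg littermates within each miR-34a genotype. In KO mice, the transgene went with higher levels of 8 of 9 members by edgeR's quasi-likelihood test, where 12.5% of all genes tested were called as higher. The median log2 fold change of the members was 1.07, against -0.00483 over all genes. Irgm1 rose by 1.04 (standard error 0.18, adjusted p = 0.00028), Gbp3 by 1.31 (standard error 0.26, adjusted p = 0.00151), Gbp6 by 1.87 (standard error 0.40, adjusted p = 0.00231) and Igtp by 1.27 (standard error 0.29, adjusted p = 0.00421). Gbp5 rose by 0.96 (standard error 0.23, adjusted p = 0.00572), Iigp1 by 1.57 (standard error 0.37, adjusted p = 0.00622), Gbp7 by 0.85 (standard error 0.21, adjusted p = 0.00681) and Gbp2 by 1.07 (standard error 0.32, adjusted p = 0.0254). Gbp9, at 0.45 (standard error 0.18, adjusted p = 0.0727), was not called. The call of Gbp2 was lost when KO Non-Tg replicate 4, 7 or 8 or KO Tg-SwDI replicate 1 or 3 was left out (adjusted p = 0.0517 to 0.0693). Igtp alone of the 9 had no overlap between the groups, where 8.47% of genes had none in this direction. Without KO Tg-SwDI replicate 8, 9 of 9 members were called, where 11.7% of genes were, and 8 of 9 did not overlap, where 10.4% of genes did not. Here too the lowest mouse of the higher group was left out, so these counts are a description and no test of the members. Choroid plexus genes moved with this comparison, at 272 to 734 CPM in KO Non-Tg mice and at 421 (replicate 2) and 3390 to 5679 CPM in KO Tg-SwDI mice. With them as a covariate, 3 of 9 members were called (Irgm1 at 0.97, Gbp3 at 1.10 and Gbp6 at 1.74, adjusted p = 0.00595, 0.0342 and 0.0351), where 6.56% of genes were called as higher. The log2 fold changes of the 5 members that lost their call were then 0.95 for Gbp2, 0.83 for Gbp5, 0.62 for Gbp7, 1.01 for Igtp and 1.18 for Iigp1 (adjusted p = 0.0808 to 0.182). The summed GTPase level was 76.5 CPM in KO Tg-SwDI replicate 2, with few choroid plexus counts, and 46.5 to 123 CPM in the 4 others of its group, and the part of choroid plexus in the GTPase levels was not tested.

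In WT mice, no member passed the threshold with the transgene. By the same test 0 of 9 members were called, where 3.94% of genes were called as higher, and 0 of 9 had an unadjusted p under 0.05. DESeq2 and edgeR's exactTest also called 0. 8 of 9 members were above 0, with a median log2 fold change of 0.33, and Gbp9 was at -0.13 (standard error 0.18, adjusted p = 0.819). Irgm1 had the lowest p, at 0.37 (standard error 0.18, adjusted p = 0.351), and Gbp6 the largest fold change, at 0.60 (standard error 0.41, adjusted p = 0.548). The 2 comparisons that start from KO Tg-SwDI mice share those 5 mice, so they are not independent of each other.

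**Figure D4:**
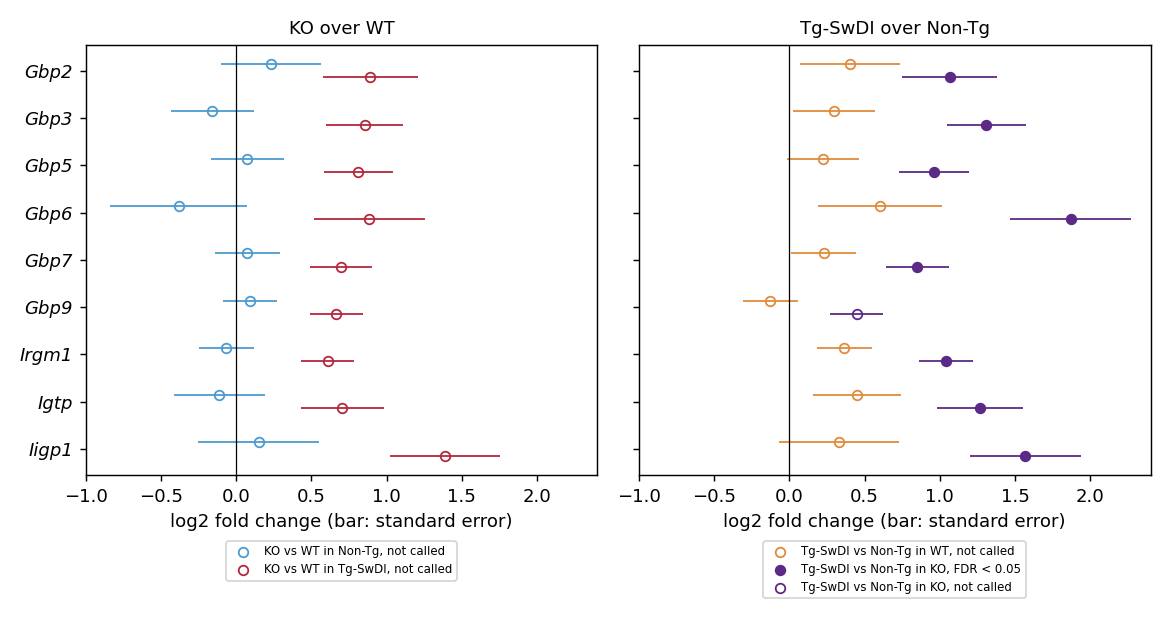
Log2 fold changes of the 9 members with bars for the standard error, for KO over WT (left: Non-Tg blue, Tg-SwDI red) and Tg-SwDI over Non-Tg (right: WT orange, KO purple), all from 1 edgeR quasi-likelihood fit of 20 mice. Filled points passed an FDR under 0.05, which were 8 of 9 purple points and 0 of the others, and the red points lay to the right of the blue points for 9 of 9 members.

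Whether the effect of miR-34a loss differed with the transgene was tested directly by the interaction term. It was above 0 for 9 of 9 members, from 0.57 for Gbp9 (standard error 0.25) to 1.27 for Gbp6 (standard error 0.58), with a median of 0.74 against 0.00908 over all genes. None of the 9 was called by edgeR's quasi-likelihood test, where 0.428% of genes were called above 0, while 6 of 9 had an unadjusted p under 0.05. The lowest adjusted p-values were those of Gbp3 (1.01, standard error 0.38, adjusted p = 0.182) and Irgm1 (0.67, standard error 0.25, adjusted p = 0.184). DESeq2 also called 0 of 9. With the choroid plexus genes as a covariate 0 of 9 were called and 2 of 9 had an unadjusted p under 0.05, with values of 0.43 to 1.17 and adjusted p-values of 0.368 to 0.687, and with library size alone as the scaling 3 of 9 had an unadjusted p under 0.05. Without KO Tg-SwDI replicate 8, Gbp3 at 1.21 (standard error 0.28, adjusted p = 0.0388) and Irgm1 at 0.83 (standard error 0.18, adjusted p = 0.022) were called, where 0.955% of genes were. That mouse was the lowest of its group for 9 of 9 members, so leaving it out raises these values by itself.

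Within the Non-Tg groups, the members tended to be high or low in the same mice. In KO Non-Tg mice, replicates 1 and 2 had summed levels of 55.4 and 57.5 CPM and replicates 4, 7 and 8 had 34.9 to 36.1 CPM, and the highest value of each of the 9 members was in replicate 1 or 2. All 5 had few choroid plexus counts, and their microglial markers lay within 443 to 484 CPM. In WT Non-Tg mice, replicates 3 and 6 were lowest at 31.3 and 33.3 CPM, and replicates 2, 4 and 7 had 43.5, 50.6 and 57.3 CPM. There the summed choroid plexus level was 463 and 310 CPM in replicates 3 and 6 and 3081, 5078 and 6951 CPM in replicates 2, 4 and 7, and its part in the GTPase levels was not tested. Over the 36 pairs of members, Pearson's r of log2 CPM over the 20 mice lay between 0.674 and 0.956 (median 0.903), and r of the deviations from the group means between 0.706 and 0.919 (median 0.838). These values share libraries and depth and are given as a description. In WT Tg-SwDI mice the members differed in which mice were high or low, since replicate 7 was highest for 4 members and lowest for 1, and replicate 3 was lowest for 5 and highest for 1.

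**Figure D5:**
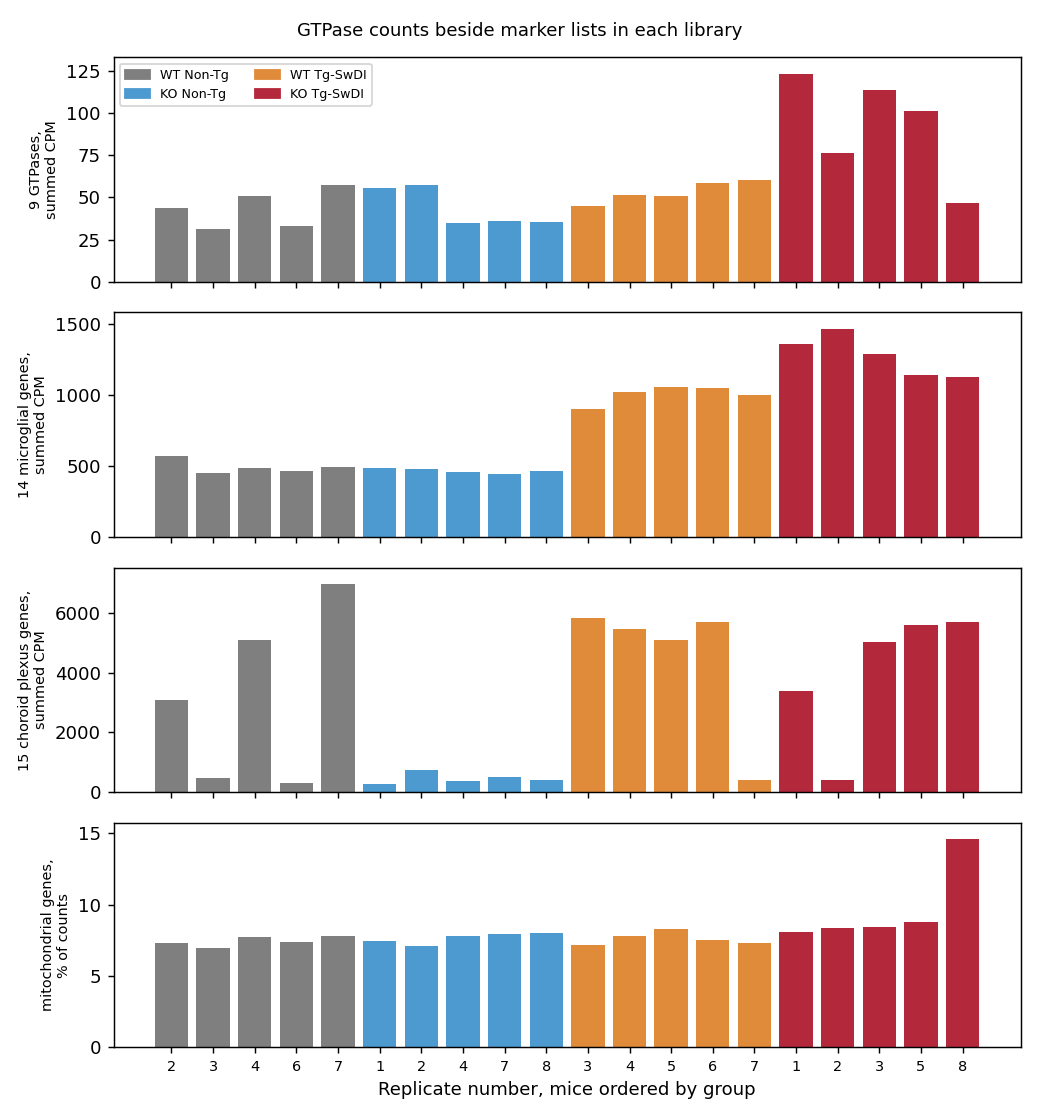
Summed CPM of the 9 GTPases, of 14 microglial genes and of 15 choroid plexus genes, and the mitochondrial share of counts in percent, in each of 20 libraries, coloured by group and named by replicate number. The GTPase sum is highest in KO Tg-SwDI replicates 1, 3 and 5, the microglial sum is higher in all 10 Tg-SwDI than in all 10 Non-Tg mice, and KO Tg-SwDI replicate 8 has the highest mitochondrial share.

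Markers of the cells that could carry these transcripts were read beside them. The 14 microglial genes summed to 1127 to 1461 CPM in KO Tg-SwDI, 899 to 1055 CPM in WT Tg-SwDI, 443 to 484 CPM in KO Non-Tg and 446 to 573 CPM in WT Non-Tg mice. All 14 of 14 were called higher with the transgene in each genotype by edgeR's quasi-likelihood test, where 12.5% of genes were in KO and 3.94% in WT mice. Among Tg-SwDI mice 5 of 14 were called higher without miR-34a, where 1.48% of genes were. The 10 astrocyte genes summed to 6628 to 8209 CPM in KO and 6259 to 7165 CPM in WT Tg-SwDI mice, and the 12 endothelial genes to 268 to 316 and 249 to 309 CPM, with 1 gene of each list called higher in KO: the astrocyte gene Gfap at 0.51 (standard error 0.12, adjusted p = 0.0412) and the endothelial gene Ly6c1 at 0.46 (standard error 0.09, adjusted p = 0.00701), both named after their values were seen. The 14 markers of T cells and NK cells, the usual source of interferon gamma, summed to 4.49 to 6.82 CPM in KO Tg-SwDI, 3.44 to 5.16 CPM in WT Tg-SwDI, 2.75 to 4.40 CPM in KO Non-Tg and 3.32 to 5.39 CPM in WT Non-Tg mice. The KO Tg-SwDI mice overlapped with both WT groups. Their lowest value stood only just above the highest of KO Non-Tg, a comparison in which 8.47% of all genes tested were higher without overlap. Of these 14 markers of T cells and NK cells, 3 had enough counts to be tested. For KO against WT Tg-SwDI 0 of 3 were called, 2 of 3 were above 0, 2 of 3 had an unadjusted p under 0.05 and the median log2 fold change was 0.56. Among Tg-SwDI mice the level of Thy1 was higher without miR-34a, at 0.37 on the log2 scale (standard error 0.06, adjusted p = 0.00416). Since that level went with the transgene labels, a difference in the Thy1 gene and one in transgene counts cannot be told apart here. The part of these markers and of Thy1 in the GTPase differences was not tested.

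Other interferon-inducible GTPases were read from a list of 18, of which 13 were tested. In KO against WT Tg-SwDI mice 11 of 13 were above 0, with a median log2 fold change of 0.52. Where 1.48% of all genes were called as higher, 1 of the 13 was called by edgeR's quasi-likelihood test. That was Mx1, an antiviral GTPase of the dynamin kind, at 1.77 (standard error 0.36, adjusted p = 0.0135). Its relative Mx2 was at 0.95 (standard error 0.29, adjusted p = 0.0838), and of the immunity-related GTPases Ifi47 was at 0.91 (standard error 0.31, adjusted p = 0.116) and Irgm2 at 0.55 (standard error 0.21, adjusted p = 0.155). In KO mice the transgene went with higher levels of 8 of 13 (median over the 13 of 0.89), where 12.5% of genes were called as higher. Among the 8 were Mx1 at 2.91 (standard error 0.41, adjusted p = 1.05e-05), Mx2 at 2.07 (standard error 0.33, adjusted p = 5.01e-05), 9930111J21Rik2 at 1.15 (standard error 0.19, adjusted p = 5.54e-05) and Gm12250 at 1.78 (standard error 0.39, adjusted p = 0.00182). 1 of 13 fell, in a test that called 8.31% of genes as lower. This was Gbp11, at -0.78 (standard error 0.25, adjusted p = 0.0262), named after its value was seen. Gbp4, whose exons overlap those of Gbp9 on chromosome 5 and which was also named after its value was seen, was at 0.07 (standard error 0.29, adjusted p = 0.893). In WT mice the transgene went with a higher level of 1 of 13, 9930111J21Rik2, where 3.94% of genes were called as higher. The 5 under the filter were Gbp2b, Gbp8, Gbp10, Gm4841 and F830016B08Rik.

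The interferons themselves had almost no counts. Of the 9 listed, Ifng had 0 to 3 counts per mouse, and group sums of 6 (WT Non-Tg), 0 (KO Non-Tg), 2 (WT Tg-SwDI) and 1 (KO Tg-SwDI). Ifnb1, Ifna2, Ifnk and Ifne had 0 or 1 count per mouse, and Ifna1, Ifna4, Ifnl2 and Ifnl3 had 0 in all 20 mice. A difference in ligand was therefore not detectable at this depth.

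Of 17 receptors, kinases and factors that carry the signal, 16 were tested. In KO against WT Tg-SwDI mice 13 of 16 were above 0 (median log2 fold change 0.28). Where 1.48% of all genes were called as higher, 3 of the 16 were called by edgeR's quasi-likelihood test. They were Irf9 at 0.73 (standard error 0.16, adjusted p = 0.0267) and Stat2 at 0.41 (standard error 0.09, adjusted p = 0.0232), partners in the complex that binds ISRE, and Ifnar2, a chain of the type I interferon receptor, at 0.40 (standard error 0.09, adjusted p = 0.025). Socs3, an inhibitor of the pathway, was at 0.40 (standard error 0.14, adjusted p = 0.121). Irf1, a factor of the interferon gamma response that was named after its value was seen, was at 0.02 (standard error 0.11, adjusted p = 0.959). With the transgene in KO mice 9 of 16 rose (median over the 16 of 0.49), where 12.5% of genes were called as higher. The 9 were led by Irf8, a factor of microglia, at 2.31 (standard error 0.17, adjusted p = 2.07e-09), Socs3 at 1.17 (standard error 0.15, adjusted p = 1.55e-06), Ifnar2 at 0.71 (standard error 0.09, adjusted p = 2.08e-06) and Ifngr1 at 0.63 (standard error 0.09, adjusted p = 5.25e-06). In WT mice 3 of 16 rose, where 3.94% of genes were called as higher, and Irf8 was among the 3 at 1.65 (standard error 0.17, adjusted p = 6.18e-07).

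Genes whose proteins place the GTPases or act after them were read next. Most of 13 autophagy genes read here belong to LC3 conjugation, the step on which placement of these GTPases depends. Becn1 and Ulk1 act outside that step. In KO against WT Tg-SwDI mice 7 of 13 were above 0 (median log2 fold change 0.00777). Gabarap was called, at 0.32 (standard error 0.08, adjusted p = 0.0401), where 1.48% of genes were called as higher. Atg12 at -0.14 (standard error 0.05, adjusted p = 0.0913), Atg16l1 at -0.13 (standard error 0.06, adjusted p = 0.198) and Gabarapl2 at -0.15 (standard error 0.07, adjusted p = 0.234) were not. Gabarap lay at 168 to 253 CPM (median 183) in KO Tg-SwDI and at 142 to 164 CPM in WT Tg-SwDI mice. Within KO Tg-SwDI, replicate 8 had its highest value and the lowest values of Atg12, Atg16l1 and Gabarapl2. No fit without that mouse is given here for the autophagy genes. With the transgene in KO mice Gabarap rose by 0.45 (standard error 0.08, adjusted p = 0.000237), while Atg16l1 fell by 0.24 (standard error 0.06, adjusted p = 0.00284) and Becn1 fell by 0.13 (standard error 0.04, adjusted p = 0.0282), so 1 of 13 was called higher and 2 of 13 lower, where 12.5% and 8.31% of all genes were. Of 10 inflammasome and caspase-11 genes 7 were tested, and 0 of 7 were called in KO against WT Tg-SwDI mice, with 6 of 7 above 0, a median of 0.21 and 3 of 7 at an unadjusted p under 0.05. Pycard, the adaptor of inflammasomes, was at 0.49 (standard error 0.13, adjusted p = 0.0531), Nlrp3 at 0.48 (standard error 0.18, adjusted p = 0.15), Casp4, the mouse gene of caspase-11, at 0.53 (standard error 0.24, adjusted p = 0.226) and Casp1 at 0.21 (standard error 0.15, adjusted p = 0.475). All 7 were called higher with the transgene in KO mice (median 0.83), where 12.5% of genes were. The 7 were led by Pycard at 1.80 (standard error 0.15, adjusted p = 6.11e-10) and Nlrp3 at 1.66 (standard error 0.20, adjusted p = 7.23e-07), with Casp4 at 1.38 (standard error 0.26, adjusted p = 0.000389) and Gsdmd, the pore protein, at 0.83 (standard error 0.17, adjusted p = 0.000855). In WT mice 3 of 7 were called, Pycard at 1.10, Nlrp3 at 1.05 and Gsdmd at 1.01, where 3.94% of genes were called as higher.

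The genes whose pattern was most like that of the members over the 20 mice were other interferon-stimulated genes. Ranked by the mean Pearson r of log2 CPM with the 9 members, they were Usp18, which removes ISG15 and damps interferon signalling, at 0.912, Rnf213 at 0.908, Irf7, the factor that amplifies type I interferon, at 0.907, Ifit3b at 0.904 and Oasl2 at 0.903. On deviations from the group means the same 5 genes had a mean r of 0.841 to 0.877. The points share libraries and depth. Irf7 was at 16.9, 6.89, 13.0, 13.7 and 3.14 CPM in KO Tg-SwDI replicates 1, 2, 3, 5 and 8 and at 3.09 to 4.59 CPM in WT Tg-SwDI mice, so replicate 8 was low there too.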

How the data were processed

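The authors extracted RNA from the left hippocampus of each of 20 mice, sequenced it on a DNBSEQ instrument, aligned reads to mm10 with STAR and deposited raw read counts per Ensembl gene from FeatureCounts; versions, strand and multimapping settings are not given in the sources used here. Each library is a separate mouse, and groups came from the library labels. Symbols and positions came from GENCODE M21 (38872 of 39056 identifiers matched). Members and gene lists were chosen with earlier results of these data known. The text names all 9 members, of each pathway list the 4 genes with the lowest adjusted p for KO against WT in Tg-SwDI and for Tg-SwDI against Non-Tg in KO, the ligands as counts, and the 5 most alike genes. 1 listed gene enters the counts of its list, and its own values are not reported here.

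Genes passing filterByExpr (minimum count 10, minimum total 15) were fitted over all 20 mice with edgeR 4.0.16 (R 4.3.3): TMM factors, 4 groups, robust quasi-likelihood F-test, 16 residual degrees of freedom, Benjamini-Hochberg FDR under 0.05. Alternatives were DESeq2 1.42.0, edgeR's exactTest, other scaling and filters, a replicate block, covariates for choroid plexus and for GC content and length, and each mouse left out. At 19549622 to 21066868 counts per mouse, Gbp6 had as few as 9 counts, which limits its precision.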

Additional observations from a re-analysis of the deposited data

How the results depend on the processing

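With 1 mouse left out, 866 values of the 9 GTPases kept their direction and side of the threshold, 18 newly passed it, 5 no longer did and 11 changed sign; under other settings these were 405, 19, 6 and 2. In what follows, shares in brackets are those of all genes called as higher. In KO against WT Tg-SwDI mice, where 0 of 9 were called (1.48%), 1 was with RLE factors (1.51%), 1 after removal of a GC content and length trend (0.734%) and 2 with a filter at a mean CPM of 1 (1.97%). The count was 3 with a choroid plexus covariate (2.42%), and 6 with DESeq2 (3.07%) or edgeR's exactTest (2.14%). With 1 mouse left out the count ran from 0 to 7, at 7 without KO Tg-SwDI replicate 8 (1.63%) and at 2, Gbp9 and Iigp1, without KO Tg-SwDI replicate 2 (2.75%). It was 1 without WT Non-Tg replicate 3 or 7 or KO Non-Tg replicate 1 or 2 (1.31% to 1.45%). In KO mice, Tg-SwDI against Non-Tg called 8 (12.5%), 3 with the choroid plexus covariate (6.56%), and 7 to 9 with 1 mouse left out (10.1% to 14.3%). For the interaction, 0 to 2 were called with 1 mouse left out (0.0801% to 1.46%). In KO against WT Non-Tg mice, where no member was called, the log2 fold change of Gbp3 changed sign to 0.017 and that of Igtp to 0.10 with the choroid plexus covariate, and with 1 mouse left out Gbp5 ran from -0.033 to 0.19, Gbp7 from -0.052 to 0.19, Gbp9 from -0.0042 to 0.20, Igtp from -0.23 to 0.084 and Iigp1 from -0.13 to 0.36. The cause was not tested.

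The share of higher genes among all calls moved with scaling. In KO against WT Tg-SwDI mice it was 74.7%, and 47.0% with library size alone. In Tg-SwDI against Non-Tg KO mice it was 60.1%, and 48.3% with library size alone or 31.9% after removal of a GC content and length trend, and in WT mice 89.4% and 75.8% with that trend removed. For the interaction it was 70.4%, and 95.2% with that trend removed.

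The replicate numbers do not pair the mice, since 2 of 16 pairs with the same number had a correlation of deviations over 0.1 and 1 of 20 mice correlated best with its own number. With the replicate number as a block, 0 of 9 members were called in KO against WT Tg-SwDI mice, where 0.0497% of genes were called as higher. In Tg-SwDI against Non-Tg KO mice 7 of 9 were, where 9.84% of genes were called as higher, and Gbp2 had an adjusted p of 0.0563 by edgeR's quasi-likelihood test.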
